A study of Chrysanthemum x morifolium with 12 samples.

Results

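The white petals of a chrysanthemum bud sport were compared with the green petals of its parent on 6 oligonucleotide arrays out of the 12 in the study. A bud sport is a shoot that differs from the plant it arose on and is then propagated as a cultivar of its own. The 3 arrays of Feeling White (FW) petals and the 3 arrays of Feeling Green (FG) petals were chosen by the cultivar and tissue in their labels, and no measured value entered the choice. The other 6 arrays, 3 of mature FG leaves and 3 of petals of Feeling Green Dark (FGD), the darker green sport of FG, entered the same fit, where they share its estimate of the spread and count in the signal cutoff, and otherwise serve to place the genes of interest. All petals were from ray florets at stage 2, when the outermost florets of the flower head begin to open, and all plants grew under natural daylight in a greenhouse. No treatment was applied to any group. Each cultivar is a single clone, so that every difference between FW and FG is a difference between these 2 clones, and the triplicates were stated to be biological without naming the plants. Whole petals were extracted, and in such bulk samples fewer cells of a type and less RNA per cell cannot be told apart. The comparison asks which genes are expressed differently when petals of nearly the same genetic background hold little or much chlorophyll (Chl).

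Chl is made in plastids from glutamate by a chain of enzymes that first build a porphyrin ring, then insert magnesium into it, and finally close and reduce the ring to chlorophyllide, to which a phytol tail is added. In the Chl cycle, Chl a and Chl b are converted into each other. In degradation, magnesium, phytol, and then the ring itself are taken apart. In most flowers, petals are green in the bud and lose Chl as they open, whereas green-flowered cultivars keep it. The labelled tissue could be checked only through these Chl genes, of which 17 of the 25 probes that passed the signal cutoff were higher and 4 lower in FG leaves than in FGD petals at an adjusted p under 0.05, against 34.8% and 43.2% of all probes tested, because no petal identity gene is named among the probes used here.

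Each array held 176026 probes, and a level is given here as the log2 of a probe's background-corrected signal minus the 75th percentile of its array, so that a level of 0 equals that percentile and a step of 1 is a doubling. Before scaling, the percentile was at a signal of 308 to 326 in FW petals and 339 to 346 in FG petals. Between 65.6% and 67.6% of the probes were well above background on the FW arrays, and between 68% and 68.4% on the FG arrays. Levels correlated across probes at 0.982 to 0.991 within each group and at 0.906 to 0.93 between the groups. The files pair no probe with a gene, so that names come from the study's own lists of Chl genes and transcription factors, and levels of different probes were not set against each other.

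The arrays of FW and FG did not lie on the same slides throughout. FW replicate 1 shared a slide with the 3 FG petal arrays, and FW replicates 2 and 3 lay on another slide with 2 FGD arrays. Differences are therefore given both for all FW arrays and, where it matters, for FW replicate 1 alone, the only one measured on the slide of its parent. When the slide was added to the model, the fitted value was exactly this within-slide difference.

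More probes were strongly lower than strongly higher in the white petals. Of 70270 probes with a mean signal of at least 100 over the 12 arrays, 338 were more than 5-fold higher in FW petals and 1431 more than 5-fold lower, each with an adjusted p under 0.05 (limma, Benjamini-Hochberg adjustment over all these probes), which is 0.481% and 2.04% of the probes tested. Only 19.1% of these calls were thus higher in FW. The calls higher in FW had a median log2 difference of 2.93 and those lower in FW one of −3.14. The median over all probes tested was 0.11 and the median size of a difference was 0.31. At any fold change the split was the other way round, with 21392 probes (30.4%) higher and 14082 (20.0%) lower in FW, so that 60.3% of these were higher. When the arrays were scaled on 8 spike-in control sequences instead of the 75th percentile, the median over all probes was 0 and only 39.2% of the calls at any fold were higher in FW. Past 5-fold, the same scaling gave 293 probes higher and 1581 lower, so that the larger number stayed on the lower side.

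Because 9 of the 12 arrays are not of FW, the cutoff lets a probe that is low only in FW pass more easily than one that is high only in FW. With the cutoff on the 6 FW and FG arrays alone, 360 probes were higher and 1234 lower in FW, and with no cutoff 820 were higher and 2147 lower. Among the probes that passed the cutoff on the 12 arrays, the lower calls were the more numerous at every level. When the probes tested were split into 5 equal bins by the midpoint of the FW and FG means, in which both groups weigh alike, 132 in the dimmest bin were higher and 655 lower in FW, and 46 in the brightest bin were higher and 230 lower. The higher ones made up 16.7% to 27.1% of the calls of a bin. Since the bins hold only probes that passed this cutoff, they do not remove its effect on the balance.

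Both groups were well above background on all 6 arrays for 301 of the 338 higher and 1158 of the 1431 lower calls. The median log2 difference of these calls was 2.89 for the higher and −3.01 for the lower ones, and the most extreme differences were 6.57 and −8.63. Among them, 10 probes were more than 50-fold higher and 8 more than 50-fold lower in FW. Without that requirement, 19 calls were more than 50-fold higher and 58 more than 50-fold lower, so that the balance at this size depends on it. For calls that do not meet the requirement the fold change is not fully measured, since some or all arrays of the dimmer group were not well above background.

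**Figure D1:**
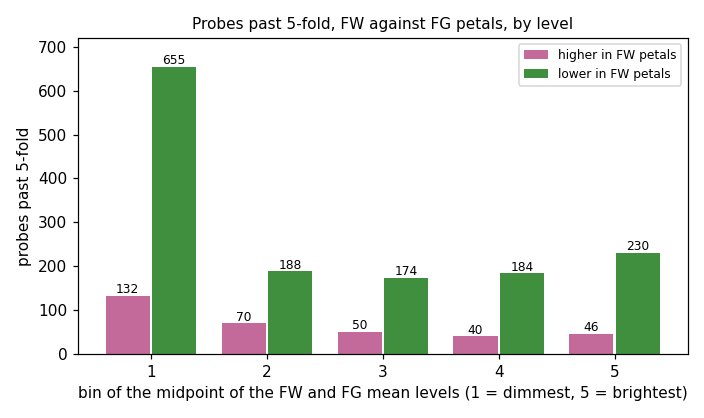
Number of probes past 5-fold at an adjusted p under 0.05 (y axis) that were higher (left bars) or lower (right bars) in FW than in FG petals, in 5 equal bins of the 70270 probes by the midpoint of the FW and FG mean levels (x axis). The lower calls, 174 to 655 in a bin, outnumber the higher calls, 40 to 132 in a bin, in each of the 5 bins.

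Some probes were detected in only 1 of the cultivars. Over all 176026 probes, 539 (0.306%) were well above background on all 3 FW petal arrays and on none of the FG arrays, and 1616 (0.918%) showed the opposite pattern. Of the probes seen only in FW petals, 27.1% were well above background on all 3 leaf arrays and 21.0% on all 3 FGD petal arrays. Of those seen only in FG petals, 48.0% were above it on all leaf arrays and 60.8% on all FGD arrays. Over all probes these shares were 60% and 64.1%, so that both sets were below them in each tissue. Most of these probes were dim, with median levels of −4.18 in FW and −4.24 in FG in the group where they were seen.

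The strong calls held on the shared slide. Without FW replicate 1, 338 probes were higher and 1346 lower in FW petals. Replicate 1 itself took no part in the fit that chose them, although its signal counts in the cutoff. In it, 98.8% of the higher probes lay above all 3 FG arrays and 98.4% of the lower probes lay below them. The FG arrays took part both in choosing the probes and in this check, so that only its FW side is new to the fit. Over all probes tested, all 3 FW arrays lay above the FG arrays for 38.6% and below them for 23.8%. That condition is stricter than the one for replicate 1 alone, for which the share over all probes was not computed. The median difference of the chosen probes from the FG mean was 3.09 and −3.42 in replicate 1, against 2.86 and −3.1 in replicates 2 and 3. The within-slide differences were thus at least as large as those across slides.

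The pathway of Chl biosynthesis was lower in FW petals at most of its steps. The list names 22 probes for it, 1 for each gene, each with its closest Arabidopsis gene model, and how a probe was picked for a gene is not given in the sources used here. Of these, 16 passed the low signal cutoff. Among the 16, 13 were lower in FW petals at an adjusted p under 0.05, against 20.0% of all probes tested, 0 were higher, against 30.4%, and 3 did not pass. At an unadjusted p under 0.05 in the same limma fit, 1 probe, *HEMA2*, was higher. With the slide in the model, 13 were again lower and 0 higher. The median difference was −1.2 over the 16 and −0.87 over all 22, beside 0.11 over all probes tested. Only 3 of them, *PORB*, *CRD*, and *PORA*, exceeded 5-fold. The arrays of the groups did not overlap, with FW below FG, for 15 of the 22 probes, whereas 23.8% of all probes tested were so separated. The median over the 22 probes lay −1.1, −0.74, and −0.79 from the FG mean on FW replicates 1, 2, and 3, and 0.04, 0.05, and −0.12 from it on the FG arrays. FW replicate 1 was the lowest FW array for 16 of the 22 probes, compared with 45.1% of all probes tested.

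**Figure D2:**
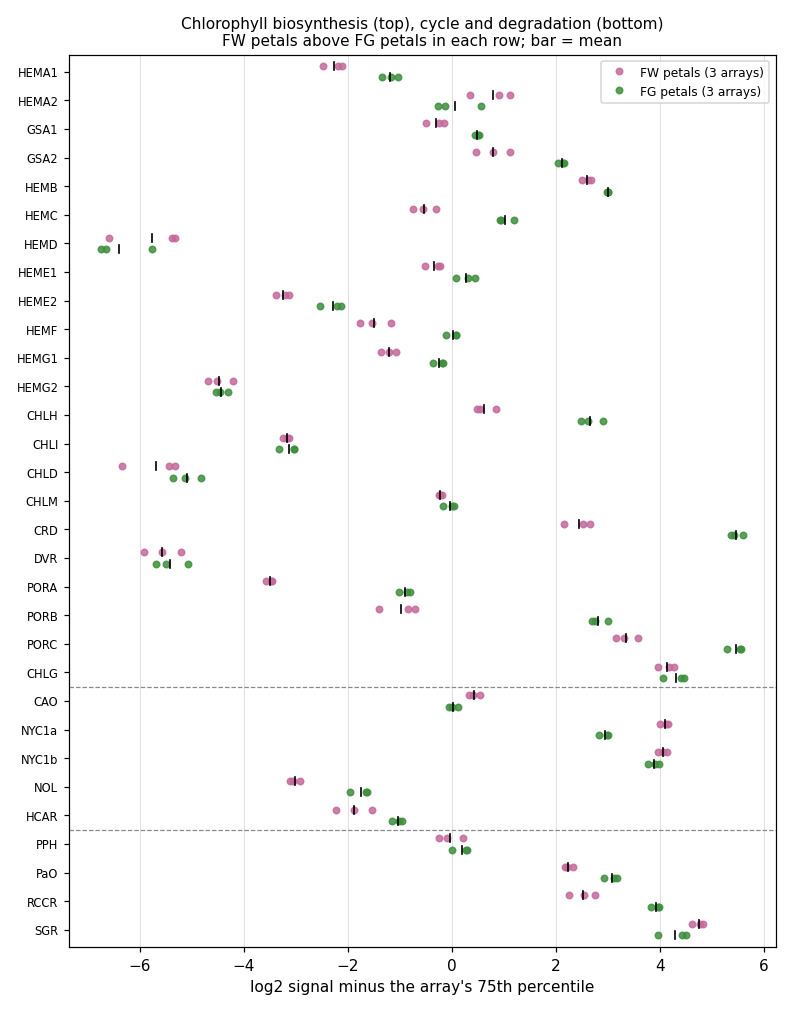
Level of each of the 31 probes for Chl genes on the 3 FW (upper points of a row) and 3 FG petal arrays (lower points), with the mean as a bar; the x axis is the log2 signal minus the 75th percentile of the array. FW points lie clearly left of FG points at *CHLH*, *CRD*, and the *POR* genes, and right of them at *NYC1a*.

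Among the 22 probes, the largest size of difference was that of *PORB*, followed by *CRD* and *PORA*. The *POR* genes encode protochlorophyllide oxidoreductase, the light-dependent enzyme that reduces protochlorophyllide to chlorophyllide. *PORB* (PD0028_002436) was at a level of −1.4, −0.7, and −0.83 on the FW arrays and 2.75, 3, and 2.69 on the FG arrays, or signals of 118, 200, and 173 in FW against 2280, 2770, and 2240 in FG. The FW arrays were all far below the FG arrays. The difference was −3.80 ± 0.18 (SE), a 13.9-fold lower level in FW petals (adjusted p = 2.07e-07), and the fold on the shared slide was larger still, at a log2 difference of −4.22.

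*PORA* (PD0028_010915), which in Arabidopsis acts mainly in seedlings that have not seen light, was at −3.46, −3.48, and −3.56 in FW petals and at −0.81, −0.85, and −1.01 in FG petals. Both groups were tight, and the gap between them was 2.46. The level was 6.13-fold lower in FW (adjusted p = 1.7e-07), although the FW signals were only 26.1 to 29.2. *PORC* (PD0028_042108) was at 3.17, 3.58, and 3.32 in FW petals and at 5.54, 5.56, and 5.3 in FG petals, a 4.31-fold lower level (adjusted p = 4.74e-07). All of the *POR* probes were thus lower in FW, without overlap.

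At the step before, magnesium-protoporphyrin IX monomethyl ester is closed to the fifth ring of Chl by the cyclase that *CRD* encodes. *CRD* (PD0028_062998) was at 2.16, 2.66, and 2.53 in FW petals and at 5.42, 5.61, and 5.37 in FG petals. It was 8.11-fold lower in FW (−3.02 ± 0.12 SE, adjusted p = 8.38e-08), with no FW array within 2.71 of the lowest FG array. *CHLH* encodes the large subunit of magnesium chelatase, which opens the Chl branch of the pathway by inserting magnesium into protoporphyrin IX. *CHLH* (PD0028_022231) was at 0.55, 0.85, and 0.48 in FW petals and at 2.62, 2.91, and 2.48 in FG petals, a 4.12-fold lower level (adjusted p = 2.45e-06).

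The probes of the array could not be shown as letters, because their sequences were not used here. The transcripts of *CHLH* and *CRD* are identified by the primer pairs the study designed on them for RT-qPCR, and of the Chl genes named here only these 2 have letters given. They are written 5′ to 3′, and no position in them is singled out.
CHLH forward: accaaatgcttatattgccgacac
CHLH reverse: agcctcttctcaatttcacgaaca
CRD forward: gtcatcattgagacaaaccgcact
CRD reverse: aagttcttcaccaacgggatgtca

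The probes for the other subunits of magnesium chelatase and for *CHLM*, *CHLG*, and *DVR* did not pass the test. For *CHLI*, whose probe is of uncertain identity, and for the dim *CHLD* and *DVR* probes, this does not show an unchanged level. The probe listed for *CHLI* (PD0028_060734) was at −3.16, −3.24, and −3.12 in FW petals and at −3.04, −3.03, and −3.32 in FG petals. The groups overlapped (adjusted p = 0.826, below the cutoff), and the Arabidopsis model that the list gives for this probe is not the one known as CHLI, so that it may stand for another gene. *CHLD* (PD0028_030521) was well above background on 0 FW and 3 FG arrays, so that no fold change is given for it, and it did not pass the test (adjusted p = 0.244). *CHLM*, the methyltransferase next to magnesium chelatase, was at −0.18, −0.23, and −0.24 in FW petals and at 0.04, 0, and −0.16 in FG petals. Its difference of −0.18 did not pass (adjusted p = 0.127), although the arrays just failed to overlap. *CHLG*, the Chl synthase that attaches the phytol tail, was at 3.97, 4.27, and 4.18 in FW petals and at 4.42, 4.47, and 4.06 in FG petals and overlapped between the groups (adjusted p = 0.27). *DVR* was well above background on 0 FW arrays and 1 FG array, and no fold change is given for it.

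Among the early steps, which are shared with heme synthesis, the changes were smaller and nearly all in the same direction. *HEMC*, the hydroxymethylbilane synthase, was at −0.75, −0.31, and −0.56 in FW petals and at 0.93, 1.2, and 0.95 in FG petals, 2.96-fold lower in FW (adjusted p = 1e-05). *HEMF*, the coproporphyrinogen oxidase, was at −1.76, −1.17, and −1.54 in FW petals and at 0.09, 0.08, and −0.1 in FG petals, 2.85-fold lower (adjusted p = 1.22e-05). These were the clearest early steps, with gaps of 1.24 and 1.07 between the groups. *GSA2*, an aminotransferase that makes 5-aminolevulinic acid, was 2.49-fold lower in FW (adjusted p = 7.61e-05), and its paralog *GSA1* 1.73-fold lower (adjusted p = 0.000113). *HEMG1*, a protoporphyrinogen oxidase, was 1.97-fold lower (adjusted p = 6.62e-05). *HEME1*, a uroporphyrinogen decarboxylase, was 1.53-fold lower (adjusted p = 0.00564), and *HEMB*, the 5-aminolevulinic acid dehydratase, 1.32-fold lower (adjusted p = 0.00113). In each of these the FW arrays all lay below the FG arrays. *HEME2* was below the signal cutoff and 1.94-fold lower in a fit of all 176026 probes (adjusted p = 0.00145), in which 9.58% of the probes were lower in FW. *HEMG2* overlapped between the groups, and *HEMD* was well above background on none of the 6 arrays.

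The probes listed for glutamyl-tRNA reductases, which carry out the first committed and strongly regulated step, gave different results. Both have the same closest Arabidopsis gene model in the list, so that the name *HEMA2* does not rest on a model of its own. *HEMA1* (PD0028_007255) was at −2.47, −2.18, and −2.11 in FW petals and at −1.03, −1.17, and −1.33 in FG petals, 2.11-fold lower in FW (adjusted p = 8.75e-05). *HEMA2* (PD0028_048590) was at 1.12, 0.92, and 0.35 in FW petals and at 0.56, −0.12, and −0.27 in FG petals. FW replicate 3 lay below FG replicate 1, and the difference of 0.74 ± 0.29 (SE) did not pass (adjusted p = 0.0527). In 5 of the 22 alternative settings it did, with adjusted p values between 0.0213 and 0.0494, so that *HEMA2* stands at the threshold. No test of the difference between these probes was made.

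The Chl cycle was not lower as a group. Of its 5 probes, which all passed the signal cutoff, 2 were lower in FW petals, against 20.0% of all probes, 2 were higher, against 30.4%, and 1 did not pass, and the median difference was 0.17. *NYC1a* (PD0028_011417), a subunit of the Chl b reductase that starts the turnover of Chl b, was at 4.01, 4.13, and 4.16 in FW petals and at 2.98, 2.84, and 3.01 in FG petals. All FW arrays were higher, by at least 1.01, and the level was 2.23-fold higher in FW (1.16 ± 0.08 SE, adjusted p = 2.62e-06). *NYC1b* (PD0028_007614) was at 3.97, 4.14, and 4.07 in FW petals and at 3.91, 3.77, and 3.99 in FG petals, with overlap (adjusted p = 0.42). *NOL*, the partner of NYC1 in Chl b reduction, was at −3.1, −2.91, and −3.05 in FW petals and at −1.64, −1.63, and −1.95 in FG petals, 2.43-fold lower in FW (adjusted p = 4.51e-06). The members of the Chl b reductase step therefore did not move together. *HCAR*, which carries out the next step back to Chl a, was at −2.23, −1.53, and −1.87 in FW petals and at −0.95, −1.02, and −1.14 in FG petals and 1.79-fold lower in FW (adjusted p = 0.00135).

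The probe listed for *CAO*, the Chl a oxygenase that makes Chl b, was at 0.34, 0.54, and 0.42 in FW petals and at −0.05, 0, and 0.13 in FG petals, 1.32-fold higher in FW (adjusted p = 0.00542). This difference no longer passed with the slide in the model (adjusted p = 0.114) or with spike-in scaling (adjusted p = 0.0846). Here too the Arabidopsis model in the list is not the one known as CAO.

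Of the 4 degradation probes, 2 were lower in FW petals, against 20.0% of all probes, 0 were higher, against 30.4%, and 2 did not pass, with a median difference of −0.53. *RCCR*, the red Chl catabolite reductase, was at 2.25, 2.76, and 2.55 in FW petals and at 3.97, 3.84, and 3.99 in FG petals, 2.66-fold lower in FW (adjusted p = 7.03e-06). *PaO*, the pheophorbide a oxygenase that opens the ring just before RCCR acts, was at 2.22, 2.33, and 2.18 in FW petals and at 3.12, 2.93, and 3.18 in FG petals, 1.78-fold lower in FW (adjusted p = 0.000266). The late, ring-opening steps were thus lower in the white petals, without overlap. *SGR*, whose product removes magnesium from Chl a and so starts its breakdown, was at 4.78, 4.63, and 4.84 in FW petals and at 4.43, 3.96, and 4.5 in FG petals. Every FW array was above every FG array, yet the difference of 0.46 did not pass the test (adjusted p = 0.118), and 38.6% of all probes tested were separated in this direction. *PPH*, the pheophytinase, overlapped between the groups (adjusted p = 0.204).

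The transcription factors named for FW petals are 38 probes that the study picked for their fold changes between these same arrays. Their differences are therefore a description and carry no independent weight. Of the 11 listed as higher in FW, 3 passed the low signal cutoff, and of the 27 listed as lower, 22 passed it. Past 15-fold, at an adjusted p under 0.01, 0.0840% of all probes tested were higher and 0.477% lower in FW petals. All 38 were separated between the groups on the individual arrays, which their choice by fold change on these same arrays makes likely. Of all probes tested, 38.6% were separated with FW above FG and 23.8% with FW below. On the shared slide, FW replicate 1 lay beyond all 3 FG arrays for each of the 38. For 18 of them the signal exceeded background clearly on each of the 6 arrays, and the size of the difference was larger in FW replicate 1 than in replicates 2 and 3 for 13 of these 18. Several probes carry the same annotation and may come from one gene, so that they are no independent measurements of it. For 15 of the 38, as for *HEME2* and *NOL* among the Chl probes, the adjusted p was no longer under 0.05 when signals under 100 were raised to 100, a step that makes all dimmer signals equal.

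**Figure D3:**
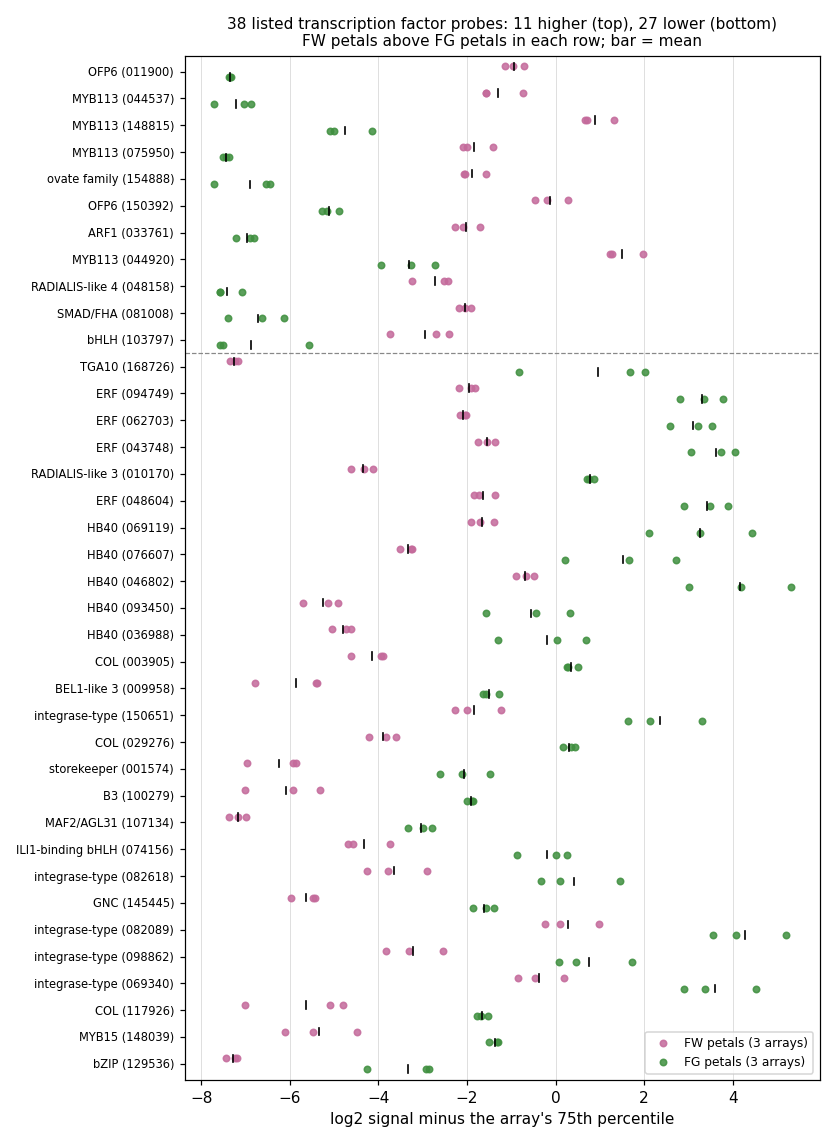
Level of each of the 38 transcription factor probes listed by the study on the 3 FW (upper points of a row) and 3 FG petal arrays (lower points), with the mean as a bar; the x axis is the log2 signal minus the 75th percentile of the array, and the 6 digits after a name are the end of the probe identifier. The FG arrays spread most widely for TGA10, the bHLH probe, and the *HB40* probes.

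Among the factors low in FW petals, the families with the most probes were an ERF, a homeobox factor, and a group annotated only as integrase-type DNA-binding proteins of the AP2/ERF class. The *ERF* probes are annotated as DREB and EAR motif protein 2, and the EAR motif is a repression motif of plant transcription factors. PD0028_048604 was at −1.36, −1.74, and −1.84 in FW petals and at 3.48, 2.9, and 3.9 in FG petals, or signals of 86.2 to 122 in FW against 2580 to 5150 in FG. The folds of the 4 *ERF* probes ran between 33.6 and 38.8, all lower in FW, and no adjusted p exceeded 9.62e-08. They differed little from each other, with log2 differences between −5.28 and −5.07.

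The *HB40* gene, for a homeobox protein of the HD-Zip type, had 5 probes. The 4 that were well above background on all 6 arrays were lower in FW by folds of 24.4 to 30.6, and the largest adjusted p was 0.000347. PD0028_076607 was at −3.52, −3.24, and −3.27 in FW petals and at 1.65, 0.21, and 2.72 in FG petals. The FW arrays were close together and the FG arrays were not, with SDs over the 5 probes of 0.15 to 0.41 in FW and 0.95 to 1.26 in FG. PD0028_093450 was well above background on no FW array and was at least 22.7-fold lower there.

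For the 5 integrase-type probes the levels were lower in FW by folds of 15.8 to 18.4, and no adjusted p exceeded 0.000161. For example, PD0028_082089 was at −0.24, 0.09, and 0.99 in FW petals and at 4.07, 3.56, and 5.2 in FG petals. In all 14 probes of these 3 families, FG replicate 2 was the lowest and FG replicate 3 the highest of the FG arrays, an order found in 23.1% of all probes tested. The lower edge of their FG levels was therefore set by the same array each time.

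Zinc finger proteins of the CONSTANS-like (*COL*) type, which carry B-boxes and a CCT domain, had 3 probes. PD0028_003905, listed for *COL16-like*, was at −4.61, −3.9, and −3.94 in FW petals and at 0.51, 0.28, and 0.25 in FG petals, 22.6-fold lower in FW (adjusted p = 6.44e-08). PD0028_029276 was at −4.22, −3.61, and −3.84 in FW petals and at 0.43, 0.16, and 0.34 in FG petals, 18.4-fold lower (adjusted p = 3.61e-08). Here the FG arrays agreed closely, and FW replicate 1 was the lowest array for both probes. PD0028_117926 was at −7.01, −4.81, and −5.09 in FW petals and at −1.52, −1.77, and −1.68 in FG petals. It was well above background on 1 FW array only, and FW replicate 1, with a signal of 2.43, was the lowest, so that no fold change is given for it.

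A GATA factor annotated as GNC (PD0028_145445), which in Arabidopsis promotes Chl synthesis and chloroplast development, was at −5.97, −5.48, and −5.43 in FW petals and at −1.39, −1.57, and −1.87 in FG petals. It was well above background on no FW array and on all FG arrays, so that it was at least 11.1-fold lower in FW (adjusted p = 1.37e-06). The bZIP probe PD0028_168726, annotated as TGA10, was at −7.36, −7.24, and −7.17 in FW petals and at −0.83, 2.01, and 1.69 in FG petals. It was at least 65.9-fold lower in FW (adjusted p = 3.73e-06), while FG replicate 1 lay far below the other FG arrays. A RADIALIS-like 3 probe, PD0028_010170, of a family named for a flower symmetry gene of snapdragon, was at −4.12, −4.33, and −4.61 in FW petals and at 0.7, 0.87, and 0.76 in FG petals, 35-fold lower in FW (adjusted p = 1.95e-05), with 2 FW arrays well above background.

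Of the other 7 probes on this side, 5 were above background on no FW array. They were at least 12.1-fold (BEL1-like homeodomain 3, PD0028_009958), at least 9.03-fold (a B3 factor, PD0028_100279), at least 8.11-fold (a storekeeper-related protein, PD0028_001574), at least 4.14-fold (MADS AFFECTING FLOWERING 2, PD0028_107134), and at least 3.35-fold lower in FW (a basic leucine zipper factor, PD0028_129536). An ILI1-binding bHLH factor (PD0028_074156), well above background on all 6 arrays, was at −3.73, −4.69, and −4.58 in FW petals and at 0.26, −0.87, and 0.01 in FG petals, 17.6-fold lower (adjusted p = 7.84e-06). A MYB15 probe (PD0028_148039) had signals of 4.57, 14.5, and 6.95 in FW petals and of 120, 138, and 141 in FG petals (adjusted p = 0.00011), and with only 1 FW array well above background its fold change is not fully measured.

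On the other side, 4 probes annotated as MYB113, an R2R3-MYB that in Arabidopsis activates anthocyanin genes, were higher in FW petals. PD0028_044920 was at 1.98, 1.27, and 1.23 in FW petals and at −3.27, −2.73, and −3.94 in FG petals, or signals of 724 to 1240 in FW against 22.5 to 52.1 in FG. It was 28.0-fold higher in FW (adjusted p = 8.16e-07). PD0028_148815 was at 1.31, 0.7, and 0.67 in FW petals and at −5.01, −4.15, and −5.1 in FG petals, 50.1-fold higher (adjusted p = 1.05e-06). FW replicate 1 was the highest array for both, and no FG array came near. The other 2, PD0028_044537 and PD0028_075950, were well above background on no FG array and were at least 17.0-fold and at least 11.7-fold higher in FW. On the shared slide, the log2 difference was 5.29 for PD0028_044920 and 6.06 for PD0028_148815.

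The ovate family proteins, plant repressors named for a fruit shape gene of tomato, had 3 probes higher in FW. PD0028_011900, annotated as OFP6, was at −0.72, −1.14, and −0.97 in FW petals and at −7.33, −7.35, and −7.37 in FG petals. It was well above background on all FW arrays and no FG array, at least 21.7-fold higher in FW (adjusted p = 1.31e-07). PD0028_150392 was at 0.28, −0.47, and −0.2 in FW petals and at −5.17, −5.27, and −4.9 in FG petals, 31.7-fold higher (adjusted p = 4.19e-07), with 2 FG arrays above background. PD0028_154888 was at least 11.2-fold higher. The remaining 4 higher probes were all without a measured FG level. A SMAD/FHA domain probe, PD0028_081008, was at −1.91, −2.05, and −2.18 on the FW arrays, all of them well above background. The others were at least 10.2-fold (auxin response factor 1, PD0028_033761), at least 6.29-fold (RADIALIS-like 4, PD0028_048158), and at least 5.42-fold higher in FW (a bHLH protein, PD0028_103797).

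Primer pairs for RT-qPCR identify the transcripts of 5 of these factors, from both sides of the comparison. They are given 5′ to 3′ for a factor higher in FW (MYB113-like, OFP6) and lower in FW (ERF, HB40, COL16-like), and again no position is singled out.
MYB113-like forward: ggcgaaggcaaatggcatctt
MYB113-like reverse: gaagcttgtgaagccttagaatgagatc
OFP6 forward: gggattattatcaaggcttttactgaga
OFP6 reverse: ggtgccttaagtcattttgaacatgga
ERF forward: gccacgacacatggaagcacac
ERF reverse: cgtatctcggcgacccacttg
HB40 forward: cactgtccttgataaatgccgtct
HB40 reverse: tgatattccatccgatcgctccac
COL16-like forward: gctgacgatgcttttctatgccaa
COL16-like reverse: cgaaactgcgcctgaaccaaa

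**Figure D4:**
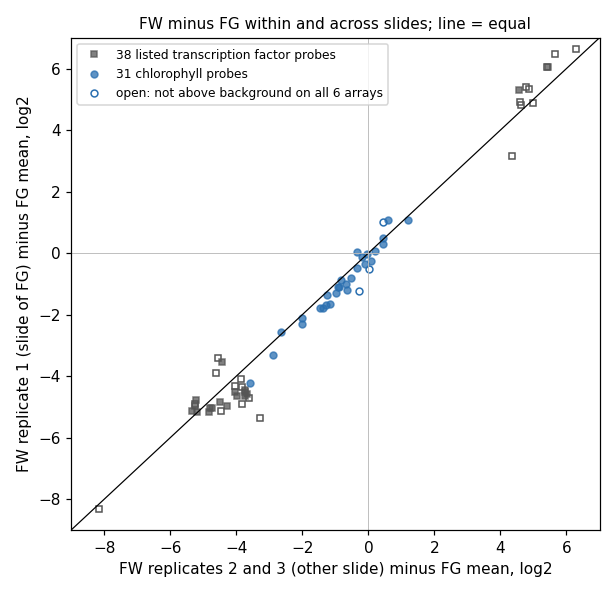
Log2 difference from the FG mean in FW replicate 1, on the slide of FG (y axis), against that of FW replicates 2 and 3, on another slide (x axis), for the 31 Chl probes and the 38 listed transcription factor probes; the line marks equal values, and open symbols are probes that were not well above background on all 6 arrays, whose differences are not fully measured. The points run along the line, with 28 of the 31 Chl probes and all 38 transcription factor probes of the same sign on both axes.

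A second list of 24 factors was picked by the study for the other comparison, FGD against FG petals, and 3 of its probes are also in the list for FW. It was not chosen on the FW arrays, but both comparisons use the same FG arrays, so that a low or high FG value moves both. In FGD against FG petals, 14.1% of all probes tested were higher and 14.2% lower. Of the 14 probes listed as higher in FGD, 6 passed the signal cutoff, and 4 of these were higher in FW than in FG petals, against 30.4% of all probes. These were the RADIALIS-like 4 probes PD0028_048158, PD0028_064158, and PD0028_102746 and a C2H2 zinc finger probe, PD0028_190240. The RADIALIS-like 4 probes share their closest Arabidopsis model, so that they are no independent measurements. They passed the cutoff through their leaf signals. Their mean levels were 3.26, 1.84, and 1.57 in FG leaves, against −2.73, −4.12, and −4.42 in FW petals. PD0028_048158 was also picked for its fold change between FW and FG. The count of 4 in 6 can therefore not be read as an excess over 30.4%. PD0028_064158 was at −3.78, −3.7, and −4.88 in FW petals and at −7.67, −7.06, and −7.73 in FG petals, where no array had it well above background. It was at least 2.4-fold higher in FW and PD0028_102746 at least 1.95-fold higher, and both were well above background on all 3 FGD arrays. When signals under 100 were raised to 100, neither passed the test, and PD0028_102746 did not pass with normexp background correction either (adjusted p = 0.155).

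PD0028_190240 was at −3.17, −0.61, and −0.46 in FW petals and at −4.51, −4.14, and −4.04 in FG petals. FW replicate 1 stood apart from the other FW arrays, and the 7.03-fold higher level in FW (adjusted p = 0.00288) came down to a log2 difference of 1.06 on the shared slide, against 3.69 across slides. The list of 10 factors lower in FGD held 6 probes of the mini zinc finger *MIF2*, which in FW petals differed from FG petals by −0.15 to 0.52 with overlapping arrays. For example, PD0028_132595 was at 6.95, 6.39, and 6.86 in FW petals and at 6.65, 5.97, and 6.75 in FG petals (adjusted p = 0.576). Of the 7 probes of this list that passed the cutoff, limma called 0 between FW and FG petals at an adjusted p under 0.05. Over all probes tested, 30.4% were called higher and 20.0% lower. At an unadjusted p under 0.05 the count was 0 as well. Most of the 7 are *MIF2* probes with the same closest Arabidopsis model, so that they are no independent measurements. PD0028_148039, below the cutoff, was lower in both sports (adjusted p = 0.00011 in FW and 0.000373 in FGD petals).

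The probes with the largest measured changes have no name in the lists used here. PD0028_029054 was at −4.29, −5, and −4.56 in FW petals and at 4, 3.52, and 4.53 in FG petals, 397-fold lower in FW (adjusted p = 1.41e-08). PD0028_040561 was at −3.23, −0.71, and −1.38 in FW petals and at 5.22, 5.96, and 3.96 in FG petals, a log2 difference of −6.82 (adjusted p = 2.07e-05). FW replicate 1 was the lowest array for the second probe, with a log2 difference of −8.28 there and −6.09 in the other FW arrays. PD0028_017275 was at 7.02, 6.47, and 6.91 in FW petals and at 0.23, −0.84, and 1.29 in FG petals, 95.2-fold higher in FW (adjusted p = 0.00014). PD0028_098174 was at 3.7, 3.13, and 3.47 in FW petals and at −2.86, −3.62, and −2.76 in FG petals, 91.3-fold higher (adjusted p = 1.49e-06). These probes were chosen among calls whose groups did not overlap, so that their separation is no result.

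The levels of the called probes were also read in FG leaves and FGD petals, which hold Chl as well and share no array with the comparison of FW with FG. The 1431 probes lower in FW had median levels of −2.07 in FW petals, 1.84 in FG leaves, 1.44 in FGD petals, and 1.16 in FG petals. The 338 probes higher in FW had medians of 1.32 in FW petals, −2.2 in FG leaves, −1.88 in FGD petals, and −1.89 in FG petals. The difference between FW and FG is set by how the probes were chosen, and the other green tissues, whose signals count in the cutoff, lay on the side of FG in both sets. Between FG leaves and FGD petals, 305 of the lower probes (21.3%) were higher in leaves and 324 (22.6%) were lower there by the same limits, against 6.99% and 7.16% of all probes tested. Their median difference of leaves from FGD petals was 0.99, beside −0.11 over all probes. Of the probes higher in FW, 24.9% were higher and 31.7% lower in leaves, with a median of −0.53. When arrays were scaled on the spike-in controls, 191 of 1581 probes lower in FW were higher in leaves. With the cutoff on the 6 FW and FG arrays alone, 197 of 1234 were. The shares over all probes tested were not computed in these settings, so whether the excess over them remained is not known. The 75th percentile was at a signal of 188 to 209 on the leaf arrays and 308 to 347 on the FGD petal arrays. The spike-in mean lay 4.39 to 4.48 above it in log2 on the leaf arrays and 3.56 to 3.81 on the FGD arrays. The count thus depended on the scaling, with 305 on the percentile and 191 on the spike-in controls. Which scaling is nearer to the true levels was not tested.

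For single genes the order of the green tissues differed. *CHLH* was at 0.63 ± 0.19 in FW petals, 6.24 ± 0.18 in FG leaves, 3.69 ± 0.13 in FGD petals, and 2.67 ± 0.22 in FG petals (SD, n = 3 arrays), and the *COL16-like* probe PD0028_003905 was at −4.15 ± 0.4, 3.72 ± 0.11, 2.11 ± 0.17, and 0.35 ± 0.14 in the same groups. Both were highest in leaves. *PORA* was at −3.5 ± 0.05 in FW petals, −2.05 ± 0.26 in FG leaves, −0.77 ± 0.1 in FGD petals, and −0.89 ± 0.11 in FG petals, and was lower in leaves than in FGD petals (adjusted p = 2.72e-06). *PORB*, which was so much lower in FW, was slightly lower in leaves than in FGD petals, by −0.46 (adjusted p = 0.0377).

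The factors divided in the same way. GNC and the B3 probe were higher in leaves than in FGD petals, by 5.21 (adjusted p = 1.69e-08) and 3.55 (adjusted p = 3.14e-06). The 3 *HB40* probes that were well above background on all leaf and FGD arrays were lower in leaves, by −4.98 to −4.3, and all 5 integrase-type probes by −4.6 to −4.25, and no adjusted p exceeded 1.56e-05. The 4 *ERF* probes differed between leaves and FGD petals by only −0.25 to −0.1 (adjusted p of at least 0.239). Among the factors that were low in FW petals, there were thus, by the percentile scaling, probes high in every green tissue, probes highest in leaves, and probes seen in green petals but low in leaves.

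**Figure D5:**
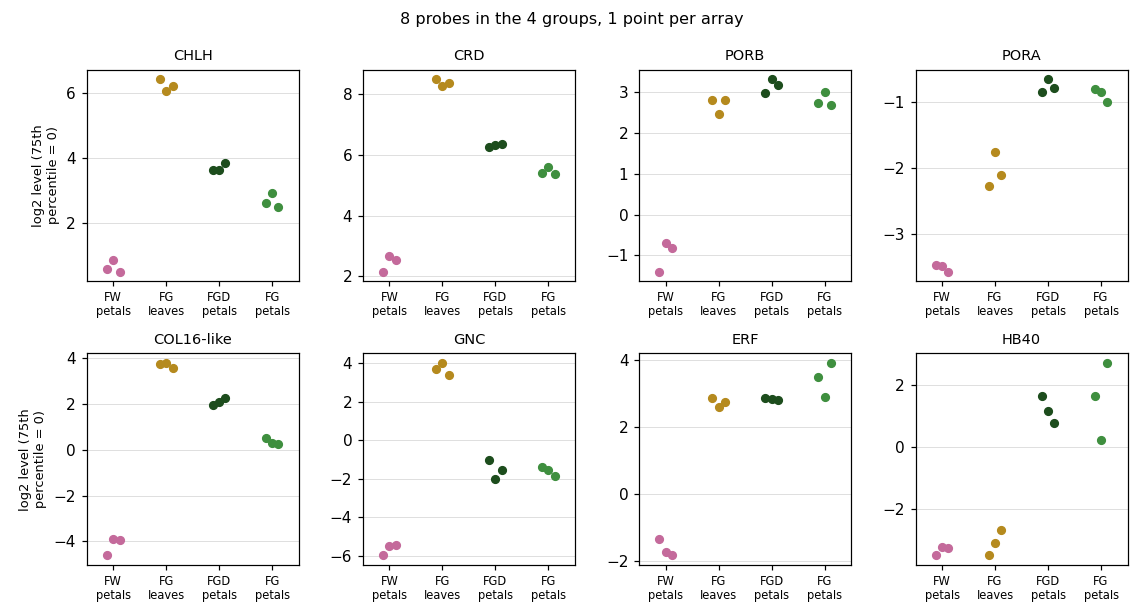
Level of 8 probes in FW petals, FG leaves, FGD petals, and FG petals (x axis), with 1 point per array; the y axis is the log2 signal minus the 75th percentile of the array and differs between panels. FW petals have the lowest mean in every panel. In that of *HB40*, 1 of the 3 leaf arrays, at −3.5, lies among the FW arrays, which are at −3.52 to −3.24, and in that of GNC the FW arrays were not well above background. Among the *HB40* probes not shown, PD0028_069119, PD0028_046802, and PD0028_036988 had lower means in leaves (−1.83, −1.14, and −5.15) than in FW petals (−1.67, −0.68, and −4.8). For PD0028_093450, also not shown, the mean was lower in FW petals (−5.25) than in leaves (−5.07).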

How the data were processed

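RNA of FW and FG petals, FGD petals, and FG leaves (3 arrays each, 12 in all, on 3 slides) had been hybridized to a custom Agilent array by the 1-color method. The authors deposited, for each array, the background-corrected intensity of every spot from Feature Extraction, with no scaling between arrays; the submitters' processing notes name version 10.7.1.1 of this software and the file headers 10.10.1.1. They also deposited a table of log2 values per array, centered for each probe, whose differences between FW and FG were within 1.82e-05 of those computed here with outlier spots kept. The value on which its probes were centered is not stated, and its columns have medians of −0.116 to 0.189.

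Here the intensities were log2-transformed, the 75th percentile of the 176026 probes of each array was subtracted, and the 4854 control spots and the spots marked as outliers (7 to 37 on an array) were left out. No spot was saturated. A probe was tested if its corrected signal averaged 100 or more across the 12 arrays. Groups were compared with limma 3.58.1 (R 4.3.3, the data.table package, version 1.17.8) in one model of the 12 arrays that estimates a mean per group; for named probes under the signal cutoff, the model was fitted to all probes. A fold change given as "at least" sets the mean of the brighter group against the mean, per array, of the dim probe's level, raised where needed to the lowest level seen among probes well above background on that array. P values measure the spread between 3 arrays a group, whose number limits the precision. The test was also run on simulated arrays with known changes, and the outcome is not given here. The named probes are the 31 of the Chl list, the 38 of the FW factor list, those of the 24 of the FGD list that were called, and the 2 probes that rose and the 2 that fell most among calls well above background on all 6 arrays without overlap. The members and lists were chosen with earlier results of these data known. Replicate numbers did not pair the arrays. The bins by level and a cutoff on the 6 FW and FG arrays were chosen after the data were seen. Other alternatives covered the scaling, the background correction, the filter, the model, slide and replicate blocks, thresholds, and leaving out each array. Plots were made in Python 3.11.15 with matplotlib 3.10.9. RT-qPCR values were not analysed here.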

Additional observations from a re-analysis of the deposited data

How the results depend on the processing

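Past the fold threshold, probes lower in FW petals outnumbered those higher in FW under all alternatives run; at any fold the higher ones were more numerous under all but spike-in scaling (9755 higher and 15160 lower). Normexp background correction (offset 50) gave 176 higher and 723 lower, and testing all probes gave 820 and 2147. Keeping only probes that were well above background in a group gave 758 higher and 2157 lower, a signal floor of 100 gave 204 and 795, and a fold change over 2 gave 2376 and 6080. Offset and floor compress dim signals by construction. The median over the 22 Chl biosynthesis probes was −0.57 with normexp, −0.51 with the floor, and −1.1 with the slide as a block in 12 or in 6 arrays. Of the probes lower in FW, those higher in leaves than in FGD petals numbered 191 of 1581 with spike-in scaling and 80 of 723 with normexp. They numbered 109 of 795 with the floor and 2745 of 6080 at a fold over 2. With the cutoff on the 6 FW and FG arrays, which was chosen after seeing the data, they numbered 197 of 1234. The shares over all probes were not computed in these settings. Leaving out each FW or FG array in turn gave 338 to 377 higher and 1346 to 1540 lower probes, 13 Chl biosynthesis probes lower each time, a median of −0.92 to −0.79, and 279 to 333 probes shared with the leaf comparison.

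The replicate numbers are no pairing by the data: deviations of same-numbered FW and FG arrays correlated at 0.106, 0.39, and −0.047. With the replicate block, 338 probes were higher and 1434 lower, 13 Chl biosynthesis probes were lower with a median of −0.87, and 306 probes were shared with the leaf comparison. Under the block none of the 76 named probes changed its call. The slide block on 6 arrays lost *CAO* and the bHLH probe PD0028_103797 (adjusted p = 0.105), and *CHLD* passed there (adjusted p = 0.0436). Under the floor, which makes dim signals equal, 19 of the 76 named probes lost their call. A probe not above background in a group has only a bound there. The cause of the other changes was not tested.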
